A study of Mus musculus with 4 samples.

Results

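The 10 genes described here, Fgf10, Fgf20, Fgfr1, Fgfr2, Spry1, Spry2, Spry4, Spred1, Etv4 and Etv5, belong to the fibroblast growth factor (Fgf) pathway and were found by gene symbol among the 23420 genes of the deposited tables. All 10 had a row, and all 10 passed the filter on low reads that left 16076 genes in the tests. Cochleae were taken at postnatal day 1 from CD1 mice carrying an Atoh1-GFP transgene, in which a hair cell enhancer drives green fluorescent protein, and were kept in culture overnight. They were then left untreated or given 0.5 mM gentamicin, an aminoglycoside antibiotic that damages hair cells, for 3 h. Fluorescence-activated sorting gave GFP-positive hair cells (HC) and GFP-negative non-hair cells (NHC), so that the 4 groups were untreated HC, gentamicin-treated HC, untreated NHC and gentamicin-treated NHC, each with 3 biological replicates. The reporter is known to be weakly active in some cells beside the inner hair cells, the sort was gated to leave weakly fluorescent cells out, and the NHC pool holds supporting, mesenchymal and other cochlear cells together.

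Fgf ligands bind receptor tyrosine kinases, and the receptors act through adaptors, Ras and the Raf, MEK and ERK kinases. ERK signalling switches on the ETS factors Etv4 and Etv5 and the Sprouty and Spred proteins, which hold the pathway back, so these genes are widely used as readouts of Fgf signalling. In the cochlea Fgf20 and Fgfr1 are needed for hair cells and supporting cells to form, Fgf10 marks the prosensory region, and Fgfr2 serves the non-sensory epithelium.

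The deposited value of a gene in a replicate is a score, namely 1 plus its normalized reads, so a score of 1 means no reads. A single read was worth between 0.0352 and 0.0461 score units, and the replicates held about 22395037 to 28146016 reads on genes. Differences below are on the log2 scale of the score, tested with limma in 1 model over the 4 groups, with Benjamini-Hochberg adjustment over all 16076 genes. The offset of 1 makes the difference of a low gene smaller than that of its reads. For the gentamicin comparisons a gene was called when p was under 0.01 and the fold above 1.2, which are the study's own limits, and the adjusted p stands beside each call.

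The sort separated hair cells clearly. The summed score of 6 hair cell markers was 7941 to 8162 in untreated HC and 200.0 to 236 in untreated NHC, and all 6 were higher in HC. The summed score of 10 supporting cell markers, by contrast, was as high in untreated HC (1421 to 1665) as in untreated NHC (992 to 1659), and it lay between 716 and 1238 in treated HC. A set of 5 mesenchyme genes, Col1a2, Col3a1, Pou3f4, Tbx18 and Twist1, stood in the 3 untreated HC replicates at 2.65, 6.90 and 2.62% of their level in NHC, and in the treated HC replicates at 0.860, 1.31 and 1.66%. Untreated HC replicate 2 therefore held the most mesenchyme RNA, and all treated HC replicates held less than the untreated ones. The 5 genes are part of a list of 7 mesenchyme markers that also holds Col1a1 and Pdgfra. The summed score of all 7 was 466 to 698 in untreated HC against 5004 to 6975 in untreated NHC. After gentamicin it was 286 to 381 in HC against 5802 to 9402 in NHC. Relative to NHC, the 7 together thus stood higher in HC than the 5 did. The NHC libraries also varied within their groups. Treated NHC replicate 2 had the lowest Sox2 score of its group, 79.1 against 123 and 174, and the highest Col3a1 score, 3922 against 3323 and 2902. Untreated NHC replicate 3 lay the other way, with Sox2 at 230 against 136 and 149 and Col3a1 at 2560.9 against 3188.4 and 3418.5.

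**Figure D1:**
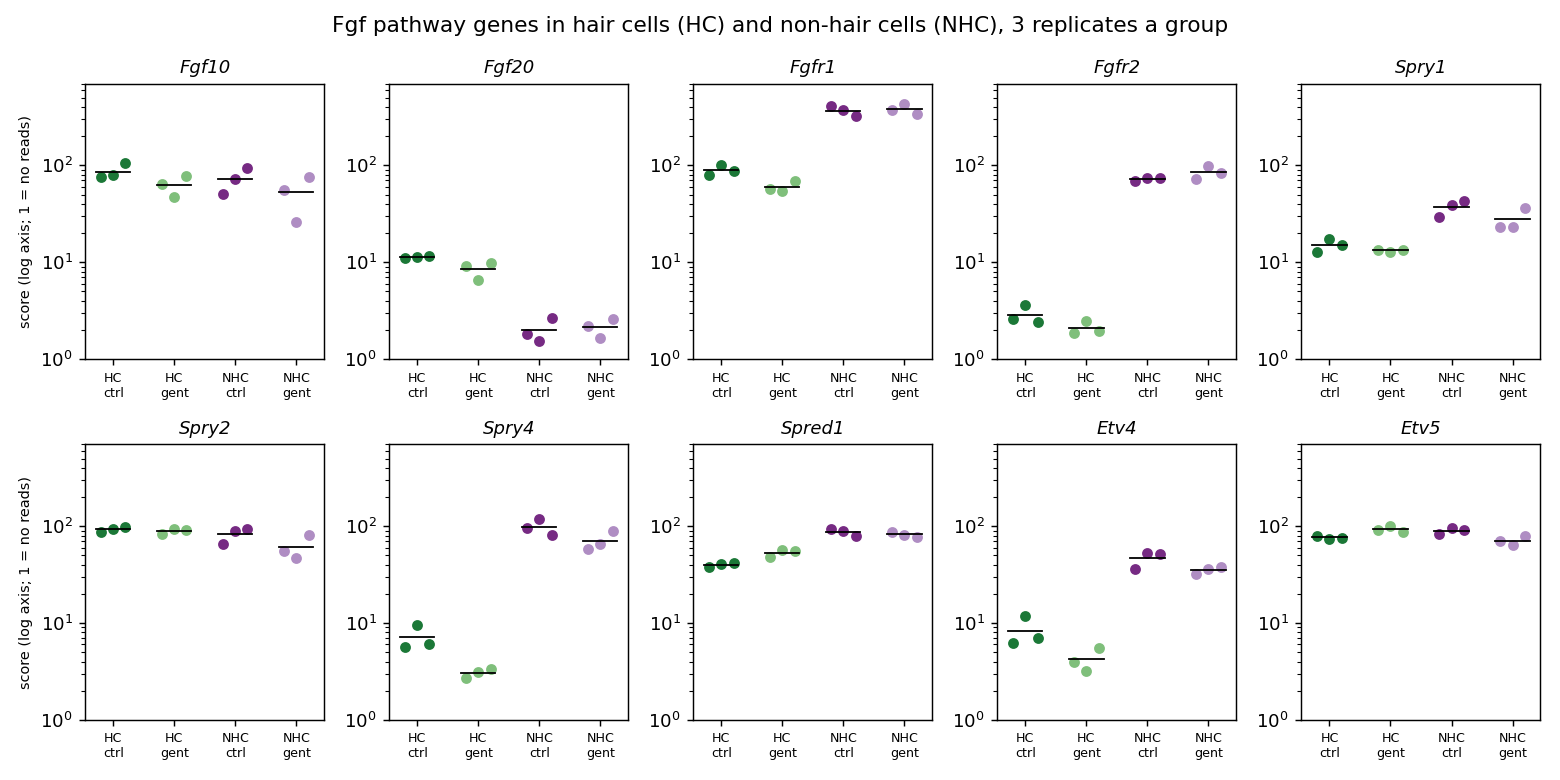
Score of each of the 10 genes (log axis, a score of 1 means no reads) in each of 3 replicates of the 4 groups; black lines are group means. Fgfr2, Spry4, Etv4 and Fgfr1 stand lower in HC than in NHC, Fgf20 stands higher, and Fgf10, Spry2 and Etv5 stand at like levels.

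The ligands differed in where they were found. Fgf10 (chr13:118714699-118792573, mm10) had scores of 75.4, 79.2 and 105 in untreated HC, 63.8, 46.9 and 77.3 in treated HC, 50.1, 72.9 and 95.0 in untreated NHC and 55.7, 26.3 and 76.0 in treated NHC. All 4 groups overlapped, and no comparison of Fgf10 passed a test: the log2 difference between treated and untreated cells was -0.48 ± 0.35 (SE) in HC, with adjusted p = 0.324, and -0.55 ± 0.35 in NHC, with adjusted p = 0.456. Treated NHC replicate 2, the library low in Sox2, held the lowest value.

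Fgf20 (chr8:40279166-40286953, mm10) was the member that stood higher in hair cells. Its scores were 11.0, 11.2 and 11.6 in untreated HC against 1.83, 1.55 and 2.66 in untreated NHC, a log2 difference of 2.52 ± 0.23 (adjusted p = 1.16e-06). In treated HC they were 9.12, 6.61 and 9.77, every one below every untreated value, and in treated NHC 2.20, 1.63 and 2.58. The difference of -0.42 ± 0.23 in HC did not pass the test (adjusted p = 0.174), although the groups did not overlap, and that in NHC was 0.10 ± 0.23 (adjusted p = 0.866). The NHC scores rest on 14 to 45 reads a library.

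The receptors among the members, Fgfr1 and Fgfr2, stood lower in hair cells. Fgfr1 (chr8:25518759-25575718, mm10), the receptor of the sensory epithelium, scored 80.3, 101 and 86.8 in untreated HC and 411, 371 and 321 in untreated NHC, a log2 difference of -2.04 ± 0.13 (adjusted p = 6.85e-08). In treated HC it scored 57.7, 54.1 and 69.1, all below the untreated HC values, and it fell by 0.57 ± 0.13 on the log2 scale (adjusted p = 0.00709). In NHC it scored 372, 429 and 336 after gentamicin, inside and just above the untreated range, with a difference of 0.04 ± 0.13 (adjusted p = 0.897).

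Fgfr2 (chr7:130162451-130266808, mm10) was nearly absent from hair cells. It scored 2.61, 3.61 and 2.43 in untreated HC and 1.87, 2.46 and 1.96 in treated HC, from 21 to 61 reads a library, against 69.7, 73.3 and 74.4 in untreated NHC and 72.7, 99.3 and 84.2 in treated NHC. The HC value was 2.25, 3.65 and 2.0% of the mean NHC level in the untreated replicates, beside mesenchyme shares of 2.65, 6.90 and 2.62% in the same replicates. In the treated replicates it was 1.03, 1.74 and 1.14%, beside shares of 0.860, 1.31 and 1.66%. Both measures thus lay in the same low range, and both were highest in untreated replicate 2. Whether the Fgfr2 reads in HC came from other cells was not tested. The difference between treated and untreated HC was -0.45 ± 0.17 (adjusted p = 0.0658), which is not a call. Without treated HC replicate 2 it was called (-0.57, adjusted p = 0.0459). All 3 untreated values lie below the mesenchyme share of their replicate, so subtracting it left the untreated group at the floor and no difference to measure.

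**Figure D2:**
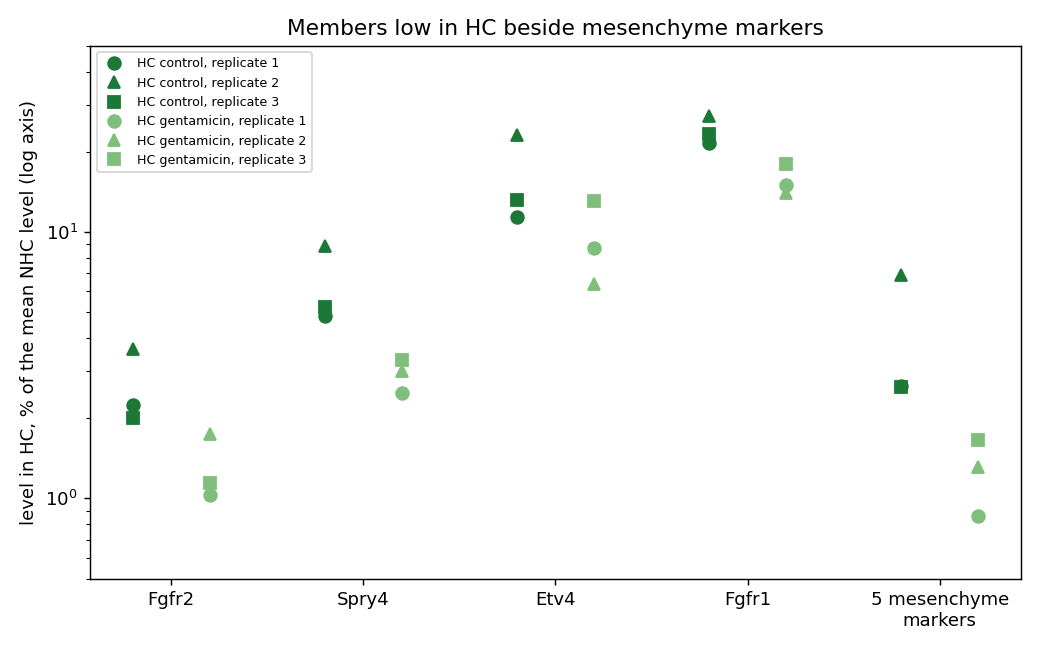
Level of Fgfr2, Spry4, Etv4 and Fgfr1 in each HC replicate as a percent of the mean NHC level of the same condition (score minus 1; log axis), beside the same quantity for 5 mesenchyme markers. Fgfr2 lies at the level of these 5 markers, Spry4 somewhat above it, and Etv4 and Fgfr1 well above it. Untreated replicate 2 (dark triangles) is the highest of its group in every column.

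Of the 3 Sprouty genes, Spry4 alone was called after gentamicin. Spry4 (chr18:38586247-38601347, mm10), an inhibitor of the pathway between receptor and Ras, had the largest fall of the 10. It scored 5.69, 9.55 and 6.07 in untreated HC and 2.73, 3.09 and 3.32 in treated HC, without overlap, a fall of 1.19 ± 0.22 on the log2 scale (adjusted p = 0.00214). In NHC it was far more abundant, at 95.5, 118 and 80.3 untreated and 58.8, 65.5 and 88.2 treated. These groups overlapped, and the NHC difference of -0.47 ± 0.22 was not called (adjusted p = 0.298). The HC level was 4.84 to 8.83% of NHC untreated and 2.48 to 3.32% treated.

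Spry2 (chr14:105891947-105896819, mm10), a close relative with the same inhibitory role, was abundant in both populations and was not called in any comparison. Untreated HC scored 87.5, 93.7 and 97.1 and treated HC 83.2, 92.5 and 90.6, a difference of -0.06 ± 0.18 (adjusted p = 0.819). Untreated NHC scored 65.1, 89.1 and 94.2 and treated NHC 55.3, 47.3 and 80.5, a difference of -0.46 ± 0.18 that was not called (adjusted p = 0.227). Its NHC call depended on the libraries: without untreated NHC replicate 1 the difference was -0.62 and without treated NHC replicate 3 it was -0.68, and both were called, with adjusted p = 0.0930 and 0.0512.

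Spry1 (chr3:37639947-37644599, mm10) scored 12.9, 17.2 and 15.2 in untreated HC, 13.4, 12.9 and 13.4 in treated HC, 29.5, 39.0 and 42.7 in untreated NHC and 23.2, 23.2 and 36.7 in treated NHC. It was lower in HC than in NHC by 1.29 ± 0.19 untreated (adjusted p = 7.66e-05). The gentamicin differences, -0.18 ± 0.19 in HC and -0.44 ± 0.19 in NHC, were not called (adjusted p = 0.493 and 0.274), although the NHC one was called without treated NHC replicate 3 (-0.66, adjusted p = 0.0643).

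Spred1 (chr2:117121071-117182279, mm10), a Sprouty-related inhibitor that brings neurofibromin to the membrane to switch Ras off, rose in hair cells. It scored 37.7, 40.9 and 41.2 in untreated HC and 48.3, 56.8 and 55.2 in treated HC. Every treated value lay above every untreated one, and the rise was 0.42 ± 0.09 on the log2 scale (adjusted p = 0.00413). In NHC it scored 94.2, 88.9 and 79.7 untreated and 88.1, 81.0 and 77.7 treated, with a difference of -0.09 ± 0.09 (adjusted p = 0.634). The HC level was 42.3 to 46.4% of that of NHC untreated and 58.3 to 68.7% treated. With the mesenchyme share subtracted the rise was 0.52 ± 0.09 (adjusted p = 0.00128).

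The ETS factors went in opposite directions in hair cells. Etv4 (chr11:101769747-101785310, mm10) scored 6.25, 11.7 and 7.08 in untreated HC and 3.97, 3.18 and 5.46 in treated HC, a fall of 0.97 ± 0.25 (adjusted p = 0.0136). It scored 36.5, 53.5 and 51.6 in untreated NHC and 31.8, 35.7 and 37.7 in treated NHC, where the ranges overlapped and the difference of -0.41 ± 0.25 was not called (adjusted p = 0.433). The HC fall missed the call without untreated HC replicate 2 (-0.70, adjusted p = 0.0540), the replicate with the most mesenchyme RNA, and without treated HC replicate 2 (-0.79, adjusted p = 0.0594).

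Etv5 (chr16:22381313-22439570, mm10), by contrast, rose slightly in HC and fell slightly in NHC. It scored 78.9, 74.6 and 76.2 in untreated HC and 91.7, 100 and 87.0 in treated HC, a rise of 0.28 ± 0.09 (adjusted p = 0.0316). It scored 83.5, 95.6 and 90.7 in untreated NHC and 70.0, 63.8 and 79.5 in treated NHC, a fall of 0.34 ± 0.09 that met the study's limits but not an adjusted threshold (adjusted p = 0.105). Neither pair of ranges overlapped. Each of these calls was narrow. The HC call was kept in 1 of 6 fits that left out a replicate, the one without treated replicate 3 (0.33). It was lost without untreated replicate 1 (0.30), 2 (0.26) or 3 (0.28) and without treated replicate 1 (0.29) or 2 (0.22). The NHC call was kept in 4 of 6 fits, being lost without untreated replicate 2 (-0.30, adjusted p = 0.392) or treated replicate 2 (-0.27, adjusted p = 0.326).

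**Figure D3:**
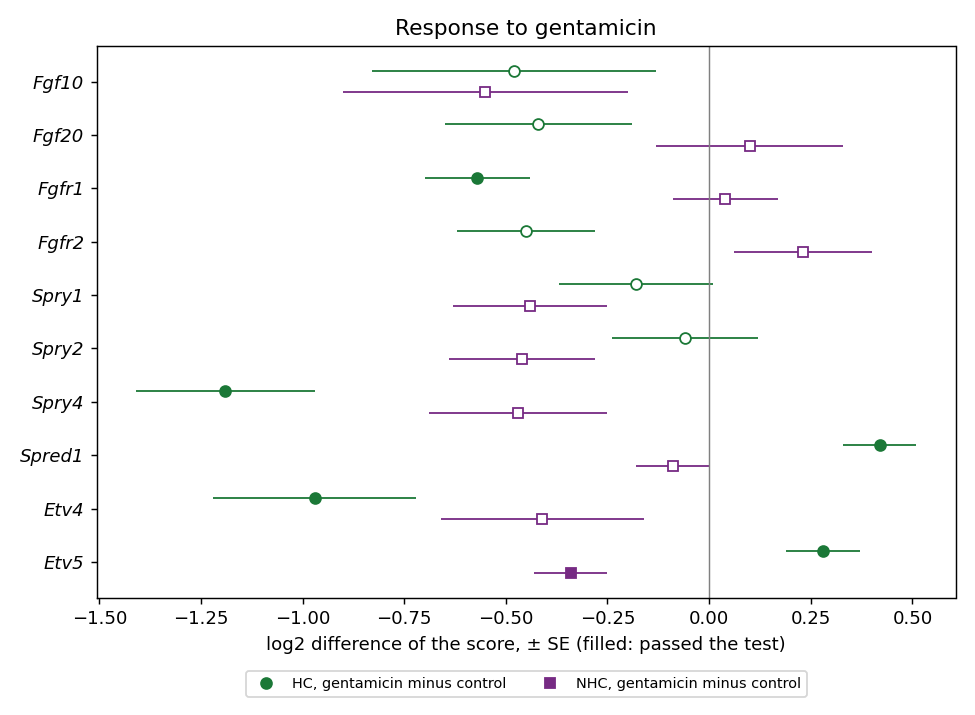
Difference in log2 score between gentamicin-treated and untreated replicates (3 against 3) for each gene in HC (circles) and NHC (squares), with standard errors; filled symbols passed p under 0.01 and a fold above 1.2. Spry4, Etv4 and Fgfr1 fell and Spred1 and Etv5 rose in HC, and in NHC 1 gene, Etv5, was called.

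Counted over the 10 genes, 2 rose and 3 fell in HC after gentamicin, and their median log2 difference was -0.44 against -0.086 over all tested genes. Of all tested genes 12.7% rose and 14.8% fell (2037 and 2381 genes; 2774 and 1591 when the replicates were scaled by their totals). With so many genes called in HC, 5 calls in 10 are a description of these genes only. In NHC 0 of the 10 rose and 1 fell by limma, and the median was -0.38 against -0.005. Without adjustment 3 of the 10 had p under 0.05 in NHC (Spry1, Spry2 and Etv5), as did 2753 of all 16076 tested genes. Of all tested genes 3.18% rose and 2.26% fell there (512 and 363; 634 and 282 with scaling by totals), and 55 of them had an adjusted p under 0.05. Of the 10 supporting cell markers and 5 neuronal markers 0 were called in NHC, with medians of -0.44 and -0.88, and of 7 mesenchyme markers 0 were called, with a median of 0.23. Of 5 endothelial markers 1 rose (Cldn5, 1.12, adjusted p = 0.0466), of 4 melanocyte markers 1 fell (Dct, -0.66, adjusted p = 0.138), and of 5 glial and 5 macrophage markers 0 were called. Their part in the NHC values was not tested.

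The difference between the HC and NHC responses was tested directly by the interaction term, with adjusted p under 0.05 as the limit. This test shares its samples with both gentamicin comparisons. It was passed by Etv5 (0.62 ± 0.12, adjusted p = 0.0101) and Spred1 (0.51 ± 0.12, adjusted p = 0.0219), whose HC responses lay above the NHC ones, and by Fgfr1 (-0.62 ± 0.18, adjusted p = 0.0491), whose HC response lay below. Over all tested genes 6.85% passed upwards and 6.57% downwards (1102 and 1056 genes; 1500 and 716 with scaling by totals). Etv5 passed in all 12 fits that left out a replicate. Spred1 passed in 9 of 12, missing without untreated HC replicate 1 (0.47, adjusted p = 0.0556), treated HC replicate 2 (0.46, adjusted p = 0.0561) and untreated NHC replicate 2 (0.50, adjusted p = 0.0526). Fgfr1 passed in 3 of 12, those without treated HC replicate 3, untreated NHC replicate 1 or treated NHC replicate 3. Without any 1 of the other 9 replicates its difference was -0.69 to -0.52 with an adjusted p of 0.0554 to 0.117, and it did not pass under either other scaling. The responses of Spry4 (-0.71 ± 0.31, adjusted p = 0.144) and Etv4 (-0.56 ± 0.36, adjusted p = 0.320) were not shown to differ between HC and NHC.

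The 3 falls in HC, of Spry4, Etv4 and Fgfr1, were set beside the markers of other cells, and a link between them was not tested. Of 7 mesenchyme markers 0 rose and 2 fell in treated HC, of 10 supporting cell markers 0 rose and 3 fell (Lfng, Hes1 and Hey1), and their median log2 differences were -0.65 and -0.79. Of 5 endothelial, 5 glial, 4 melanocyte and 5 neuronal markers, 1, 2, 1 and 0 fell and none rose, and of 5 macrophage markers 1 rose (Cd68), with the others not called. In bulk samples fewer cells of a type and less RNA per cell cannot be told apart. When the share of NHC scores given by the 5 mesenchyme genes was subtracted from HC, Spry4 still fell, by 0.55 ± 0.17 (adjusted p = 0.0310), as did Etv4, by 0.79 ± 0.24 (adjusted p = 0.0301), and Fgfr1, by 0.43 ± 0.12 (adjusted p = 0.0178). A list of 26 markers of mesenchyme, endothelium, macrophages, glia and melanocytes gave larger shares, 9.93 to 13.9% in untreated and 5.74 to 7.08% in treated HC, above the level of Fgfr2. With that share subtracted none of the 3 falls was called: every Spry4 value lay below the share, so it was at the floor in both groups (0.00) and could not be measured, Etv4 differed by -0.57 ± 0.43 (adjusted p = 0.369) and Fgfr1 by -0.41 ± 0.13 (adjusted p = 0.0400, over the limit on the unadjusted p). Spred1 and Etv5 rose with either share subtracted, with Spred1 at 0.68 ± 0.09 and Etv5 at 0.41 ± 0.09 under the wider list. Neither list holds supporting cell markers, so neither share measures supporting cell RNA in HC. The part of such RNA in these values was not tested.

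**Figure D4:**
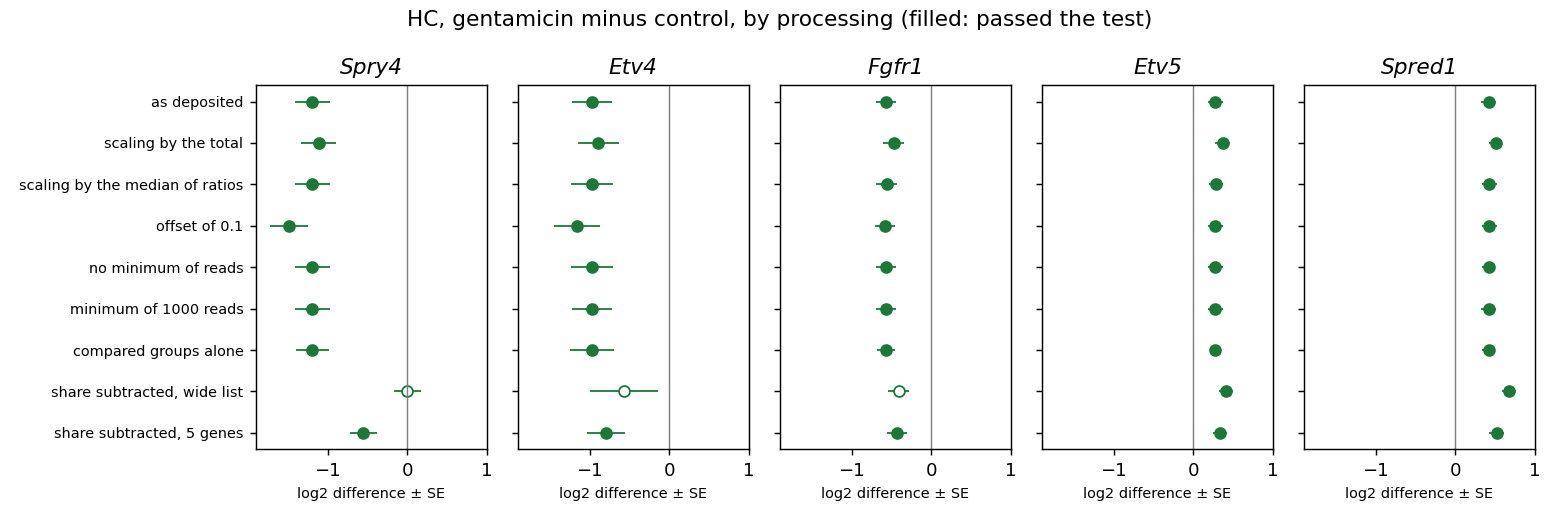
Difference in log2 score between treated and untreated HC, with standard errors, for the 5 called genes. The settings that keep all replicates are shown, except the replicate block, under which Etv5 lost its call (0.28, adjusted p = 0.0451). Filled symbols passed the test. Subtracting the wider marker share leaves Spry4 at the floor in both groups (0.00) and takes the call from Spry4, Etv4 and Fgfr1, whereas Spred1 and Etv5 keep theirs.

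Between the populations, 1 of the 10 genes was higher in untreated HC (Fgf20) and 6 were higher in untreated NHC (Fgfr1, Fgfr2, Spry1, Spry4, Spred1 and Etv4), with adjusted p under 0.05 and a fold above 2 as limits. Of all tested genes 13.7% were higher in HC and 22.4% higher in NHC. Fgfr2 had the largest contrast, -4.67 ± 0.17 (adjusted p = 7e-10), followed by Spry4 at -3.81 ± 0.22 (adjusted p = 2.74e-08) and Etv4 at -2.53 ± 0.25 (adjusted p = 2.81e-06). Spred1 differed by -1.13 ± 0.09 (adjusted p = 2.95e-07). The median over all tested genes was -0.123, and it was -0.013 when the replicates were scaled by the median of ratios, so all of these contrasts are larger than the shift that the scaling makes. Spred1, however, came to -1.01 under that scaling, just past the fold limit of its call.

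In the treated replicates, a separate set of samples, Fgf20 was again higher in HC and Fgfr1, Fgfr2, Spry1, Spry4 and Etv4 higher in NHC, while 15.0% and 25.4% of all tested genes were higher in HC and in NHC. Spred1 no longer reached a fold of 2 (-0.62 ± 0.09, adjusted p = 3.81e-05). Spry1, at -1.03 ± 0.19, stood at that limit, and it fell under it without treated NHC replicate 3 (-0.81, adjusted p = 0.000823) and under both other scalings. Etv5 was under the fold limit in both cases, at -0.23 ± 0.09 before gentamicin (adjusted p = 0.0330) and 0.39 ± 0.09 after it (adjusted p = 0.00156). Scaled by the median of ratios these were -0.11 (adjusted p = 0.290) and 0.52 (adjusted p = 0.000163), and without 1 replicate the adjusted p before gentamicin reached 0.116.

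Levels of different genes were compared per kilobase of the longest protein-coding transcript of each, from GENCODE M21, as the score minus 1. In untreated HC Spry2 led with 44.0 ± 2.33 per kilobase (SD, n = 3). Fgf10 at 20.8 ± 3.88, Etv5 at 19.0 ± 0.546 and Fgfr1 at 17.5 ± 2.11 came next and did not differ beyond their spread. Fgf20 at 6.95 ± 0.212 and Spred1 at 6.47 ± 0.326 were likewise close, followed by Spry1 (5.10 ± 0.770), Etv4 (3.07 ± 1.22), Spry4 (1.28 ± 0.448) and Fgfr2 (0.436 ± 0.148). In untreated NHC the order was another: Fgfr1 led with 72.7 ± 8.98, Spry2 followed with 39.2 ± 7.44, and Fgf20 was last with 0.687 ± 0.390. Etv5 (22.4 ± 1.52), Spry4 (20.4 ± 3.98), Etv4 (19.3 ± 3.88), Fgf10 (17.4 ± 5.46), Fgfr2 (16.6 ± 0.576), Spred1 (14.4 ± 1.22) and Spry1 (13.0 ± 2.47) lay between. Neighbours from Etv5 to Spry1 were within each other's spread, except that Fgfr2 lay above Spred1 without overlap. Fgfr1 lay above Spry2, Spry2 above Etv5 and Spry1 above Fgf20 by more than their spread.

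For each member the tested genes whose centred log2 scores over the 12 replicates lay nearest were looked up, as a description. Nearest to Fgf10 were 4930426D05Rik, Sox2 and Xkr4, with root mean square differences of 0.148, 0.170 and 0.172. Sox2, a prosensory and supporting cell factor, had mean scores of 235 in untreated HC, 164 in treated HC, 172 in untreated NHC and 125 in treated NHC. Nearest to Spry4 were the matrix genes Lamb1, Col5a1 and Col4a1, with differences of 0.220, 0.236 and 0.253. Nearest to Spry1 was Epha2, an ephrin receptor and known ERK target, at 0.102, with mean scores of 8.84 and 8.45 in HC and 21.6 and 17.4 in NHC, untreated and treated. Nearest to Etv5 were Ugcg (0.0796), Ufl1 (0.0834) and Prr5 (0.0928), and nearest to Spred1 were Atp8b2 (0.0866), Ggcx (0.0955) and Tab2 (0.0958).

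RefSeq promoter entries (GRCm38.p6, the mm10 assembly) were held for 6 of the 10 genes, Fgf10, Fgfr2, Spry1, Spry2, Spred1 and Etv5. The 250 bases before the start of Spred1 (chr2:117120821-117121070, plus strand) and of Etv5 (chr16:22439571-22439820, minus strand) are given because these 2 genes rose together in HC (Etv5 has 2 entries, and the one further upstream is shown). Capitals mark the GC box, GGGCGG on either strand.
Spred1: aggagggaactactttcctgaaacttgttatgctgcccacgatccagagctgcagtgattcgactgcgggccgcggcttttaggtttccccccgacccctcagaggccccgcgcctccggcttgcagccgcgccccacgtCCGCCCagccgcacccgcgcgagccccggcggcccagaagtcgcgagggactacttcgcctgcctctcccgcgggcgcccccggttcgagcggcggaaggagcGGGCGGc
Etv5: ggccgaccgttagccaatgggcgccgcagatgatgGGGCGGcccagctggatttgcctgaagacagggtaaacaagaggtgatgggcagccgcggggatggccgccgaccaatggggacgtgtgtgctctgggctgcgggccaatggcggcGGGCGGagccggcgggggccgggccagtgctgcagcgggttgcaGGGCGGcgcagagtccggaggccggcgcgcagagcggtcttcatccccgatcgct
Both stretches are rich in G and C, 70.8 and 71.2%, against a median of 52.4% over 32851 promoters, and hold 31 and 27 CG pairs against a median of 6. Spred1 has 2 GC boxes and Etv5 has 3, and 32.7% of all promoters have at least 1. The other Etv5 entry (chr16:22438369-22438618) has 0, with 62% G and C and 18 CG pairs. None of the promoter entries of the 6 genes held CCGGAAG, an ETS factor motif, or TGANTCA, the AP-1 motif, on either strand, while 6.91 and 6.75% of all promoters of the same length did. No match says only that these letters are not in this window.

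Among the other genes of the pathway, 66 were measured and 60 passed the filter. In HC, 8 of these 60 rose and 17 fell after gentamicin, with a median of -0.17, beside 12.7% and 14.8% of all tested genes and their median of -0.086. Leaving out single replicates gave as few as 5 that rose and 10 that fell, and 13 of the 24 calls followed here one by one were kept in all 6 such fits, among them Fgf8, Flrt3, Frs2, Nf1 and Ier3. Among 11 tested ligands, Fgf8, which inner hair cells make, fell in HC from 94.6, 84.5 and 101 to 44.4, 46.5 and 65.1 (-0.86 ± 0.15, adjusted p = 0.00141), and Fgf5 fell (-0.65) and Fgf7 rose (0.57) from scores near the offset. Fgf8 stood at 1.00 to 1.14 in all NHC replicates, with or without gentamicin. The other ligands described beside the members were not called: Fgf3 had a difference of -0.12 ± 0.36 and Fgf9 of 0.42 ± 0.41. Of 10 receptors and co-receptors, the decoy receptor Fgfrl1 fell (-0.89 ± 0.28, adjusted p = 0.0303), as did Flrt1 (-0.85 ± 0.14, adjusted p = 0.00119). The Fgfrl1 call was kept in 1 of 6 fits without a replicate (-1.06 to -0.61), those of Fgf5 and Fgf7 in 4, and that of Flrt1 in all 6. Flrt3, a membrane partner of Fgf receptors, had the largest rise of the pathway, from 5.43, 8.70 and 6.76 to 20.6, 30.1 and 17.4 (1.69 ± 0.30, adjusted p = 0.00163), and Klb rose from near the offset (0.77 ± 0.13). Fgfr3, a receptor of supporting cells, was not called (-0.27 ± 0.31), nor was Fgfr4 (-0.88 ± 0.31, adjusted p = 0.0488). Before gentamicin Fgfr3 scored 220, 243 and 210 in HC and 128, 152 and 233 in NHC, so it was not lower in HC. Fgfr4 was lower there, at 12.7, 14.2 and 11.0 in HC and 93.4, 69.1 and 42.4 in NHC.

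Of the 17 relay genes between receptor and ERK, 3 were called higher and 5 lower in treated HC, beside 12.7% and 14.8% of all tested genes. Among those that rose were the Ras activator Sos1 (0.38 ± 0.07) and Braf (0.31 ± 0.09). The Braf call was kept in 3 of 6 fits without a replicate. The receptor adaptors Frs2 (-0.70 ± 0.10, adjusted p = 0.000396) and Frs3 (-0.52 ± 0.11), together with Nras (-0.51), Map2k1 (-0.58) and Mapk3 (-0.31), fell. Of these the Map2k1 call was kept in 1 of 6 such fits and the Mapk3 call in 5, and the others in all 6. Of 14 tested feedback genes and inhibitors 1 rose, the Ras inhibitor Rasa1 (0.37), and 6 fell, beside the same shares of all tested genes. Those that fell were the ERK phosphatases Dusp6 and Dusp4, neurofibromin (Nf1, -0.61 ± 0.09, adjusted p = 0.000508), Cbl (-0.35), and the heparan sulphate sulfatases Sulf1 (-0.95) and Sulf2 (-0.71). The Dusp4 call was kept in 1 of 6 fits without a replicate and the Sulf1 call in 3. Dusp6, a common readout of Fgf signalling, went from 35.0, 49.1 and 41.0 to 16.8, 17.4 and 27.2 in HC (-1.05 ± 0.27, adjusted p = 0.0120). That call was lost without untreated HC replicate 2 (-0.92, adjusted p = 0.0520), treated HC replicate 1 (-0.92, adjusted p = 0.0453) or treated HC replicate 2 (-0.95, adjusted p = 0.0493), where the unadjusted p missed its limit. It went from 115, 168 and 163 to 64.6, 113 and 129 in NHC, where it was not called (-0.59 ± 0.27, adjusted p = 0.292). Its HC level was 23.0 to 32.5% of that of NHC untreated and 15.6 to 25.9% treated. The relatives Spred2 (0.05 ± 0.14) and Il17rd (-0.47 ± 0.22) were not called, and Spry3 was at 1.00 in every replicate.

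**Figure D5:**
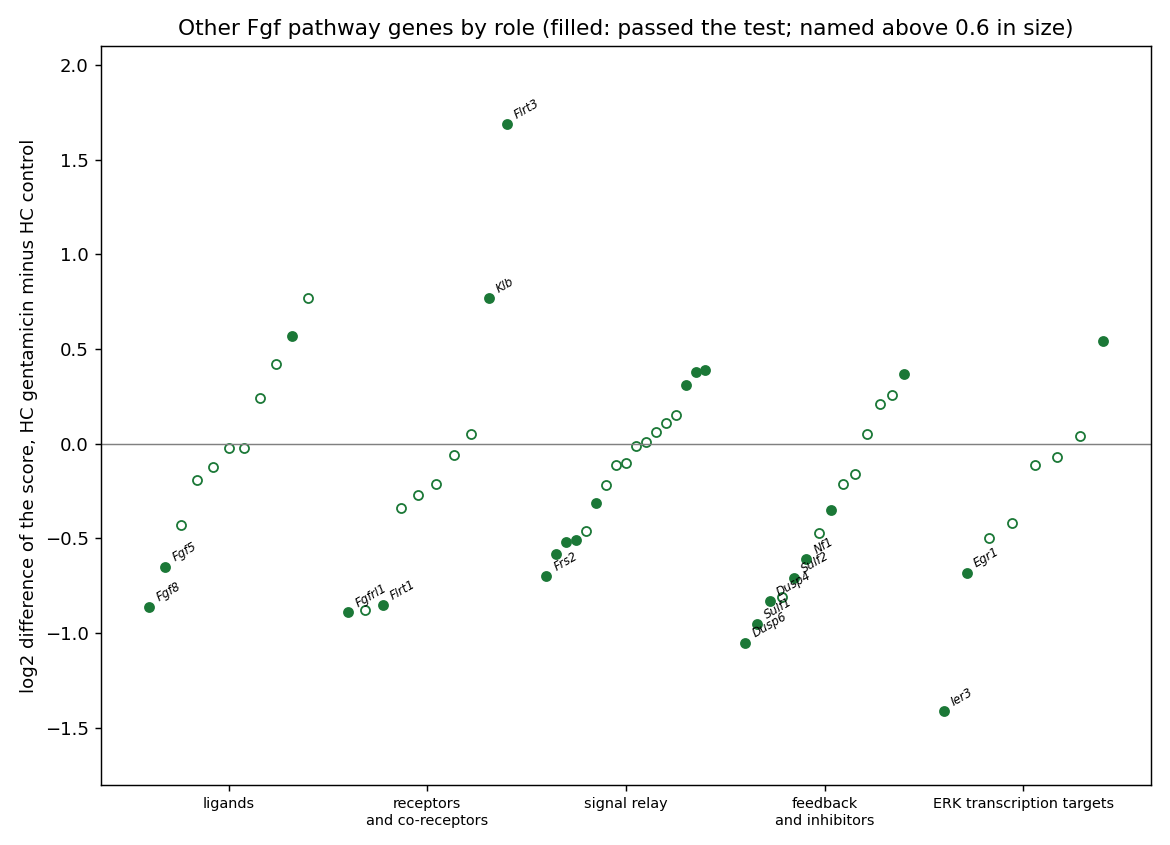
Difference in log2 score between treated and untreated HC for the 60 other tested Fgf pathway genes, ordered within each role; filled points passed the test and the larger of these are named. Flrt3 stands highest at 1.69 and Ier3 lowest at -1.41, and the feedback genes hold 6 falls and 1 rise. Over all tested genes 14.8% fell and 12.7% rose.

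Of 8 genes known to follow ERK activity 1 was called as rising in HC, the ephrin receptor Epha4 (0.54 ± 0.17, adjusted p = 0.0270), and 2 fell, Ier3 and Egr1. Over all tested genes 12.7% rose and 14.8% fell in HC. The Epha4 call was lost in all 6 fits that left out a replicate (0.49 to 0.59, adjusted p up to 0.0919). Ier3 fell from 17.8, 26.5 and 25.1 to 11.0, 7.36 and 7.81 in HC (-1.41 ± 0.19, adjusted p = 0.000383), and from 327, 288 and 249 to 130, 139 and 177 in NHC (-0.96 ± 0.19, adjusted p = 0.0623). Ier3 in HC stood at only 5.87 to 8.89% of NHC untreated and 4.31 to 6.79% treated, and these untreated levels lie below the wider marker share, so that no fall could be measured once that share was subtracted. Egr1 fell by 0.68 ± 0.18 in HC and kept the call in 3 of 6 fits without a replicate (-0.85 to -0.57). Etv1, the third factor of the Etv4 and Etv5 family, was not called in HC (0.04 ± 0.24) or NHC (0.20 ± 0.24).

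In NHC 0 of the 60 genes rose and 5 fell, namely Ier3, Frs3 (-0.47), Spred3 (-0.39), Nf1 (-0.29) and Phlda1 (-0.59), with adjusted p from 0.0623 to 0.138, and the median was -0.07. Ier3 and Frs3 kept the call in all 6 fits without a replicate, Spred3 in 4, and Nf1 and Phlda1 in 3 each. Over all tested genes 3.18% rose and 2.26% fell there. The difference between the responses passed for 8 of the 60, beside 6.85% of all tested genes upwards and 6.57% downwards. Of these 4 responded higher in HC, among them Sos1 (0.52), Klb (0.71) and Fgf7 (0.74), and 4 lower, among them Fgf8 (-0.96), Frs2 (-0.61) and Cbl (-0.35). Left without 1 replicate, Sos1, Fgf8 and Frs2 passed in all 12 fits, Klb in 5, Cbl in 4 and Fgf7 in 3. Between untreated HC and NHC, 5 of the 60 were higher in HC and 19 higher in NHC, beside 13.7% and 22.4% of all tested genes. Feedback genes held 0 and 7 of these and ERK targets 0 and 5, among them Dusp6 (-1.83 ± 0.27), Spred2 (-2.04 ± 0.14) and Il17rd (-2.07 ± 0.22). Ligands held 4 and 3, with Fgf8 (6.51 ± 0.15), Fgf3 (1.82 ± 0.36), Fgf15 (1.02 ± 0.19) and Fgf21 (2.74 ± 0.33) higher in HC.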

How the data were processed

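Poly-A RNA of sorted HC and NHC was sequenced as 50 bp single-end reads. The authors trimmed the reads, aligned them to mm10 with TopHat 2 in PartekFlow, and deposited 1 table a group with 3 replicate columns of a normalized score. The paper's methods speak of RPKM, but the deposited score was found not to be divided by gene length: after the offset of 1 was removed, 83.5 to 84.6% of low values were whole multiples of a smallest step (within 0.1), which gave the approximate reads. Since most but not all values were whole, no count model was run.

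Genes with at least 100 reads over the 12 replicates were tested with limma 3.58.1 (R 4.3.3) on log2 of the score, with 4 groups in 1 model and a mean-variance trend, and the code was tested on simulated data. A gentamicin call needed p under 0.01 and a fold above 1.2, a difference between responses an adjusted p under 0.05, and a population difference an adjusted p under 0.05 and a fold above 2. With 3 replicates against 3, p-values from single-gene permutation could not have gone under 0.10, so none were computed. The members, the pathway list, the marker lists and the tests were chosen with earlier results of these data known. Every member was named, and other pathway genes were named where called in a gentamicin comparison or between the responses, or where they are relatives of a member. The genes likest to a member are those with the smallest root mean square difference of centred log2 scores. Alternatives were other scalings, offsets and read minimums, a replicate block, the compared groups alone, leaving out each replicate, and subtracting from HC a share of the mean NHC score set by marker genes. The share set by 5 mesenchyme genes was added after seeing the data, as was the GC box among the motifs. Of the listed pathway genes, 1 was not analysed here and 2 are counted but not reported by name. The positions are from RefSeq (GRCm38.p6). Replicate numbers stand in the column headers and are shared by the 4 groups, with no statement of what they mark. Deviations from the group means correlated at 0.216, 0.316 and 0.2 between same-numbered untreated HC and NHC replicates. The differences given between untreated HC and NHC nevertheless come from the model without this pairing. With the replicate block no call of a member changed in that comparison. The standard errors there were 0.12 for Fgfr2 and 0.14 for Fgfr1, against 0.17 and 0.13 without the block. The other pairs of groups did not have all 3 correlations above 0.1.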

Additional observations from a re-analysis of the deposited data

Results flagged for a closer look

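The difference between the HC and NHC responses to gentamicin was tested by the interaction term of the limma model, with adjusted p under 0.05. This test was passed by 3 of the 10 genes and 8 of the 60 other tested pathway genes. Of all tested genes 6.85% passed upwards and 6.57% downwards, so the 8 of 60 lie near the share of all genes. Etv5 differed by 0.62 on the log2 scale, rising in HC and falling in NHC in 3 of 3 treated replicates each, outside the range of the untreated ones. Spred1 differed by 0.51, and Fgfr1 by -0.62, the last with an adjusted p of 0.0491 that most fits without 1 replicate did not keep. Of the other genes 4 had the higher response in HC, among them Fgf7 (0.74), Klb (0.71) and Sos1 (0.52), and 4 the lower one, among them Fgf8 (-0.96), Frs2 (-0.61) and Cbl (-0.35). Sos1, Fgf8 and Frs2 passed in all 12 fits without 1 replicate, Klb in 5, Cbl in 4 and Fgf7 in 3. The HC scores of Fgf7 and Klb lay near the offset. Mesenchyme markers had a median difference between responses of -1.16, with 0 of 7 called, and their part in these results was not tested.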

How the results depend on the processing

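Of 420 values of members under settings other than leaving out a replicate, 400 kept their direction and their side of the threshold. Subtracting the share of the wider marker list took the members called in HC from 5 to 2 and the other pathway genes that fell in HC from 17 to 8, raised those with a higher HC response from 4 to 7, and turned the sign of Spry1 (0.07) and Spry2 (0.03) in HC. The values of Ier3 in HC (0.45) and of the response difference of Spry4 (0.47) also have the other sign there, but the untreated HC values lay below the subtracted share and were set to the floor, so no direction can be read from them. The same holds for Fgfr2 in HC (0.21) after subtracting the share of the 5 mesenchyme genes. Scaling by totals turned the sign of Spry2 in HC (0.03). In the compared groups alone 0 members and 3 other pathway genes fell in NHC, where limma gave 1787 genes with an unadjusted p under 0.05. A minimum of 1000 reads left 2 pathway genes with a higher HC response, and scaling by the median of ratios gave 9 pathway genes higher in untreated HC instead of 5. The difference between the responses of Fgfr1 was not called under either scaling, without a minimum of reads, or with either share subtracted. The cause was not tested.

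In the gentamicin comparisons the deviations of same-numbered replicates correlated at 0.037, 0.052 and 0.037 in HC and at 0.208, -0.232 and 0.683 in NHC. Between treated HC and NHC they correlated at 0.377, -0.039 and -0.018. None of these pairs of groups had all 3 correlations above 0.1, although single numbers deviated together, most of all number 3 in NHC. With the replicate block Etv5 lost its HC call (0.28, adjusted p = 0.0451) and Fgfr2 gained one (-0.45, adjusted p = 0.0215), the response difference of Fgfr1 was not called (adjusted p = 0.0618) and that of Fgfr2 was (-0.67, adjusted p = 0.0355). The pathway genes with a higher HC response went from 4 to 7 and with a lower one from 4 to 9, and 1 rose in NHC.

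When each replicate was left out in turn, the members called ranged from 3 (without untreated HC replicate 2) to 5 in HC, from 0 (without replicate 2 of either NHC group) to 3 (without treated NHC replicate 3) in NHC and from 1 to 3 for the response difference. The other pathway genes that rose and fell ranged from 5 (without treated HC replicate 2) to 8 and 10 (without replicate 2 of either HC group) to 15 in HC and from 0 to 1 and 2 (without untreated NHC replicate 2) to 10 (without treated NHC replicate 3) in NHC, and those with a higher HC response from 1 (without untreated HC replicate 1 or 2, treated HC replicate 2 or untreated NHC replicate 3) to 4. The lowest and highest values of differences that changed sign were -0.07 and 0.32 for Fgf20 in NHC, -0.05 and 0.13 for Fgfr1 in NHC, -0.37 and 0.40 for the response difference of Fgf10, and -0.08 and 0.68 for Fgf10 between treated HC and NHC. Scores of Fgfr2 in HC and Fgf20 in NHC rest on few reads, which limits what could be seen there.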
